A study of Mus musculus with 2 samples.

Results

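Transcript models that kept the 3' end of a transcript but lacked exons at its 5' end were examined in mouse gastrocnemius, the large calf muscle. They were taken from the deposited table of each library as the models of known genes that the authors' naming scheme classed as an incomplete splice match of the suffix kind, here called suffix models. A suffix model has the same introns as the 3' part of a longer transcript and none of the introns before that. Replicate 1 held 18385 suffix models among 85723 transcript models, and replicate 2 held 17512 among 86916. Matched by their introns, they made up 28310 distinct intron chains over both libraries.

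The study comprised 1 group of 2 long-read RNA libraries and no second condition. Both came from gastrocnemius of male B6CASTF1/J mice, hybrid offspring of the C57BL/6J and CAST/EiJ strains, at 18-20 months of age, with no treatment named in the labels. Each was made from 2 µg of RNA with spiked SIRV and Ambion mix 1 controls, and per the labels the biological replicates 1 and 2 are separate biosamples. Whether tissue of several mice was pooled is not given in the sources used here, so the spread between the libraries may be partly technical. Replicate 1 held 1509380 reads and replicate 2 held 1173233. Fibre markers led in both: Acta1, Ckm, Myh4, Atp2a1 and Actn3 lay between 10196 and 174781 CPM (reads scaled to a common library total). The fibroblast genes Col3a1, Dcn and Col1a1 lay between 139 and 251 CPM. The endothelial genes Kdr, Cldn5 and Pecam1, the nerve gene Mbp and the immune genes Cd74 and Ptprc lay at or below 33.2 CPM, with Ptprc at 0 in replicate 2.

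A messenger RNA carries a cap at its 5' end and a poly(A) tail at its 3' end. In cDNA copied from the tail, a copy that stops before the cap keeps the 3' exons and lacks the 5' ones. RNA broken before copying gives the same shape, and so does a messenger made from a promoter inside the gene. Alternative promoters are common in muscle, where they give short forms of a myosin light chain and of ankyrin.

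The windows below show DNA around the starts of suffix models that lay within 100 nt of a start in RefSeq, a second gene catalogue. They are shown because a catalogue other than the one used for naming places a start there. Each line gives 100 bases before the model's start in lower case and 20 bases from the start onward in capitals, 5' to 3' on the gene's strand. The sequences are RefSeq promoter windows of build GRCm38.p6, the same build as the files (mm10). The windows are chr15:98111934-98112053 on the plus strand for Pfkm, muscle phosphofructokinase, the enzyme that commits sugar to glycolysis, and chr3:97658114-97658233 on the plus strand for Prkab2, the beta 2 subunit of the energy sensor AMPK. They are chr2:91257235-91257354 on the plus strand for Pacsin3, a membrane-bending adaptor protein, chr5:21786550-21786669 on the plus strand for Psmc2, an ATPase subunit of the proteasome, and chr19:5366344-5366463 on the minus strand for Banf1, a protein that bridges DNA and the nuclear envelope.
Pfkm: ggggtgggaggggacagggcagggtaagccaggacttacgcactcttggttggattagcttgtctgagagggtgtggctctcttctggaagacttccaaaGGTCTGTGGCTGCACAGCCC
Prkab2: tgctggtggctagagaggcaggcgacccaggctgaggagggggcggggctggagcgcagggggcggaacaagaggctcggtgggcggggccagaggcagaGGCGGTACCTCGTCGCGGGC
Pacsin3: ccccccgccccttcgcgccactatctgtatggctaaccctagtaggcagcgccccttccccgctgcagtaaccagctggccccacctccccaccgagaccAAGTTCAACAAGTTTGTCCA
Psmc2: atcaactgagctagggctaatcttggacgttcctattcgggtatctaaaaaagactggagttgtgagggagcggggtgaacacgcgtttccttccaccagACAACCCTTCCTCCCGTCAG
Banf1: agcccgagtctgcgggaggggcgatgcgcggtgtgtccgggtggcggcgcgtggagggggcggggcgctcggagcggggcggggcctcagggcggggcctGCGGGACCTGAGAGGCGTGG

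The windows differed in base composition. The 100 bases before the start were 56.0% G and C with 1 CpG in Pfkm, 73.0% with 6 in Prkab2, 68.0% with 6 in Pacsin3, 50% with 5 in Psmc2 and 82.0% with 15 in Banf1. Over 32851 RefSeq windows of the same length the medians were 55.0% and 3. Searched on both strands, GGGCGG was found in Prkab2, Pacsin3 and Banf1, and in 24.7% of all windows. CANNTG, which reads the same on both strands, was found in Pacsin3 and Psmc2, and in 34.4% of all windows. Neither TATAAA (5.56% of all windows) nor CCAAT (18.9%) was found in these 5. In Psmc2 the last 2 bases before the capitals are ag, the pair that ends an intron. In the other 4 the capitals do not follow ag. The models of Prkab2, Pacsin3, Psmc2 and Banf1 start exactly at the first base of an annotated exon. The Pfkm model does not.

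A further set shows starts inside coding sequence. Here 30 bases of the parent transcript's sequence (GENCODE M21) come before the model's start, in lower case, and 30 follow from it in capitals. Hrc encodes the histidine-rich calcium-binding protein of the sarcoplasmic reticulum, Pink1 a kinase that marks damaged mitochondria, and Ndufa4 a small subunit of the respiratory chain.
Hrc: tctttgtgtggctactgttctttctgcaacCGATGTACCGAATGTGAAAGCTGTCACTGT
Pink1: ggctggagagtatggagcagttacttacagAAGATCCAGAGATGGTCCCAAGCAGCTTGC
Ndufa4: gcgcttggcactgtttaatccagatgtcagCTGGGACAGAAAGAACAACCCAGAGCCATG

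The Hrc model starts at coding base 2020 of 2214, the Pink1 model at coding base 774 of 1740 and the Ndufa4 model at coding base 132 of 246. All 3 lack the annotated start codon, and in replicate 1 each starts at the first base of an annotated exon.

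Suffix models held 103452 reads in replicate 1, or 6.85% of all reads (exact 95% Clopper-Pearson interval 6.81% to 6.89%), and 84271 reads in replicate 2, or 7.18% (7.14% to 7.23%). The mean was 7.02% ± 0.233 (SD, n = 2). These and the later intervals cover counting error only. Suffix models occurred in 5837 of 13403 known genes with reads in replicate 1 and in 5559 of 13507 in replicate 2, and 4274 genes had them in both. Most rested on little: 65.0% of the models of replicate 1 and 66.2% of those of replicate 2 had 1 read. The 911 and 891 models with at least 10 reads held 71.2% and 66.8% of all suffix reads. The mirror class, prefix models that lack the 3' end, numbered 1963 and 1806, with 22559 and 12612 reads.

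The starts were compared with the parent, the most read annotated transcript whose 3' introns the model matched. Where no matching transcript had reads, the one with the fewest missing 5' exons was taken. This was so for 1796 models of replicate 1 (11.4% of those with a parent) and 1800 of replicate 2 (12.4%). An annotated parent was found for 15714 models of replicate 1 and 14501 of replicate 2. The other 2671 and 3011 matched no annotated transcript of their gene in this way. Which longer models they are suffixes of was not checked. The most read of these was a 6-exon model of Tnni2, fast troponin I, with 1609 reads in replicate 1 and 662 in replicate 2.

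A median of 5 parent exons was missing in replicate 1 and 6 in replicate 2, or 908 and 962 nt. As a share of the parent's spliced length the median missing was 29.5% (quartiles 15.5% and 47.4%) and 28.4% (14.6% and 45.9%). Models lacking 1 exon made up 16.2% and 16.7% of the models and 21.3% and 23.8% of the reads. Models lacking 11 or more made up 27.2% and 28.5% of the models. Of models with a coding parent, 8.19% and 8.45% kept the annotated start codon, with 14.6% and 17.7% of the reads. The missing length grew with the parent: the median was 208 and 204 nt for parents up to 1000 nt, 702 and 661 nt for parents over 2000 and up to 3000 nt, and 2184 and 2091 nt for parents over 5000 nt. As a share, the median missing was 29.0% and 29.2% up to 1000 nt, 31.4% and 29.3% up to 2000 nt, 28.1% and 26.5% up to 3000 nt, 27.3% and 26.4% up to 5000 nt, and 33.9% and 31.8% above, with no steady rise.

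**Figure D1:**
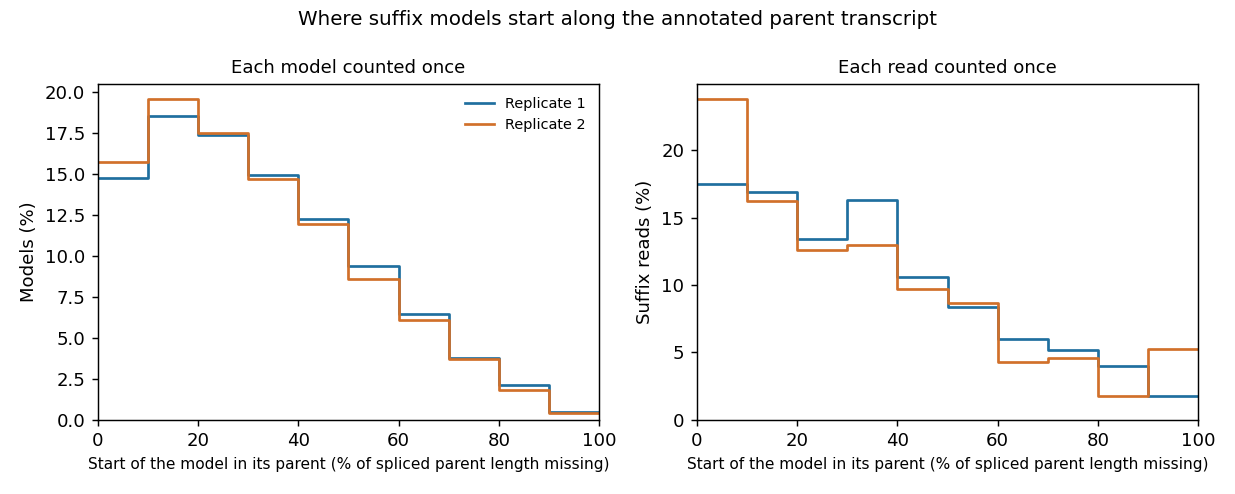
Where suffix models start along their annotated parent, in bins of 10% of the spliced parent length missing, as a percent of models (left) and of suffix reads (right), per library. In replicates 1 and 2, 14.8% and 15.7% of the models lack less than 10% of the parent, and 18.6% and 19.6% lack 10% to 20%. Beyond that models thin out, and 0.452% and 0.421% lack over 90%. A model must keep at least 1 intron of its parent, so none can start in the parent's last exon.

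Most starts coincided with annotated exon starts. Whether the naming step moved them there is not given in the sources used here. In replicate 1, 87.2% of the models with an annotated parent started exactly at the first base of an annotated exon of the gene, and 86.7% did in replicate 2. Another 12.8% and 13.3% started elsewhere, and their start position is not one of an annotated exon. Of the latter, 22.2% and 22.7% started where another model of the same library had an internal exon start. Among those that lay inside a parent exon, the pair AG came just before the start in 31.1% of 1734 and 31.9% of 1651 models, against 8.20% and 8.21% of all positions of the same parents. AG is the pair that ends an intron. Few starts fell outside every annotated exon: 165 models with 7629 reads in replicate 1 and 153 models with 5681 reads in replicate 2. A single Pfkm model gave 3585 and 3631 of these reads.

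Some models had little or no sequence of their assigned parent missing. In 982 models of replicate 1 (6.25%) and 876 of replicate 2 (6.04%), the first exon ran through at least 1 intron of the parent without splicing. In 152 and 160 of these it reached the parent's own start, so the model lacked an intron and no 5' base of that parent.

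Long genes gave the largest suffix shares. Among genes with at least 10 reads in a library, grouped by how long their most read annotated transcript is, the median share of a gene's reads in suffix models was 0% in both libraries up to 1000 nt. It was 1.30% and 0.443% above that up to 2000 nt, 2.86% and 2.26% up to 3000 nt, 4.81% and 3.85% up to 5000 nt, and 7.69% and 8.14% over 5000 nt. The order of the bins was the same in both libraries. Pooled over genes above 5000 nt, 26.5% of the reads in replicate 1 and 24.2% in replicate 2 were suffix reads. Myh4 weighed heavily there, and without it the pooled shares were 16% and 17.6%. The pooled shares of the shorter bins were 5.24% and 5.82%, 4.24% and 3.88%, 7.31% and 6.63%, and 7.36% and 7.03%, in order of length, so up to 1000 nt the pooled share lay above the next bin, unlike the median. Across genes, which are not independent replicates and share a library, the share had a Spearman's rho of 0.33 with length in both libraries, and of 0.52 and 0.49 with the number of exons. Exon number bears on what can be seen, since a shortened copy of a gene with few introns has few intron chains to match.

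The number of reads of a gene had less bearing. The median share was 0% in both libraries for genes with 10 to 29 reads, 3.17% and 2.94% at 30 to 99 reads, 2.72% in both from 100 to under 300, 2.48% and 2.51% from 300 to under 1000, and 3.14% and 3.37% at 1000 or more. Spearman's rho with gene reads was 0.09 and 0.10. In the lowest bin 50.7% and 52.3% of genes had no suffix read, against 15% and 8.99% in the highest, and with few reads a small share is not detectable. When only reads of known and suffix models were counted, the highest bin lay below the lowest, by a mean difference of -1.56 points in place of 3.26. Among genes of 100 to under 1000 reads the rise with length remained, from a median of 0.625% and 0.694% up to 1000 nt to 6.50% and 7.76% over 5000 nt.

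**Figure D2:**
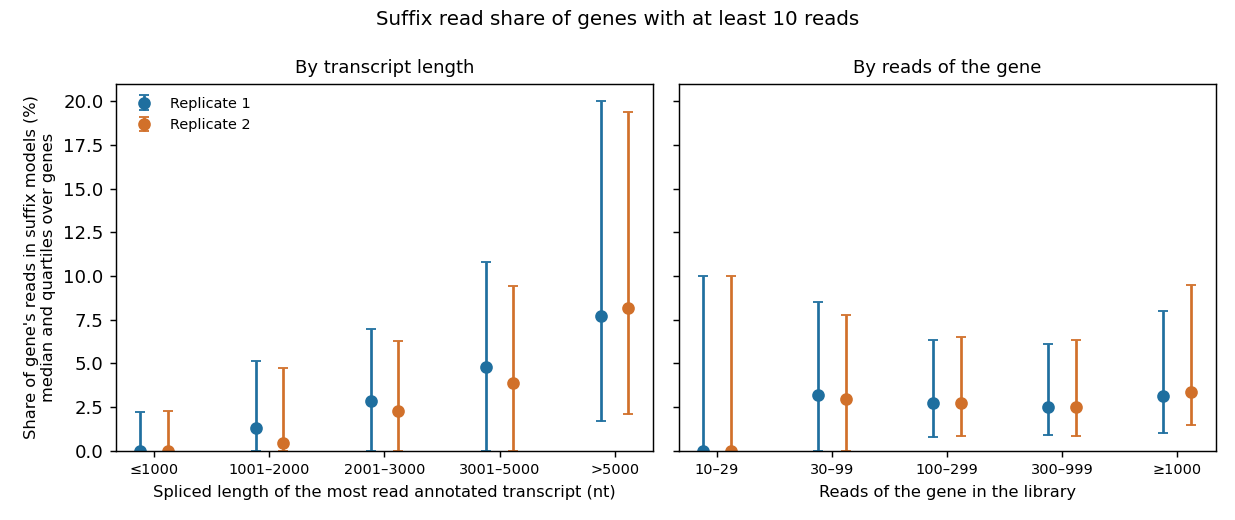
Share of a gene's reads in suffix models, as median (point) and quartiles (bars) over genes with at least 10 reads, by transcript length in nt (left) and by reads of the gene (right), per library. The median goes from 0% up to 1000 nt to 7.69% and 8.14% over 5000 nt, and stays between 2.48% and 3.37% from 30 reads upward.

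Genes of giant and long sarcomere, junction and matrix proteins had a wide range of shares. Of the 32 genes in this list, 31 had suffix reads and 22 had at least 20 reads in each library, with median shares of 30.9% and 34.4%. Over all 4671 genes with that depth the medians were 3.31% and 2.86%. Ryr1, the calcium release channel of the sarcoplasmic reticulum, had 1097 suffix reads of 1175 (93.4%) in replicate 1 and 943 of 1041 (90.6%) in replicate 2. Cmya5, a costamere protein, had 74.1% and 74.3%, and Flnc, the muscle filamin, 69.7% and 75.1%. Neb, the ruler of the thin filament, had 54.3% and 52.8%. Other members were low: Ahnak, a giant membrane-associated protein, had no suffix read among 80 and 42, Syne2, a nuclear envelope protein, had 3.57% and 4.55%, and Mybpc1, slow myosin-binding protein C, 8.75% and 6.05%. The libraries differed by less than 6 points in Ryr1, Cmya5, Flnc and Neb, but Ttn had 31.4% and 48.4% and Xirp2 had 41.2% and 61.0%.

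The myosins showed the same within a family. Myh4, the heavy chain of the fastest fibres, had 15401 suffix reads of 34657 (44.4%) and 14173 of 34487 (41.1%), spread over 242 and 262 models. Myh1 of type 2X fibres had 28.5% and 25.9%, Myh2 of type 2A fibres 53.1% and 47.7%, and Myh7 of slow fibres 21% and 13.1%. Their gene reads differed between the libraries, with 119 for Myh7 in replicate 1 and 2729 in replicate 2. Reads of these near-identical genes may be misassigned, which was not tested.

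The short abundant genes stood lower, with medians of 4.11% and 2.84% over 22 genes. Tnnc2, fast troponin C, had 1.34% and 1.5%, Acta1, skeletal actin, 3.47% and 2.80%, and Slc25a4, the mitochondrial ATP carrier, 0.660% and 0.557%. Cox8b, a small cytochrome oxidase subunit, had none among 1207 and 468 reads. Higher shares were found in Tnni2, with 29.3% and 38.1%, most of it the 6-exon model without annotated parent, and in Tnnt3, fast troponin T, with 27.4% and 25.4%. Atp5b, described below, and Mybph, a myosin-binding protein with 26.2% and 17.1%, also stood apart in this list.

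Among the genes profiled, starts ranged from spread over nearly all exons to piled up at 1 exon, with some genes between. In Myh4-202, of 5912 nt and 38 exons, all 36 possible start exons were used in both libraries. The complete form had 5062 and 5727 reads. The start exon with most reads was exon 25 in replicate 1, with 8.93% of the parent's suffix reads, and exon 36 in replicate 2, with 16.1%. Pygm, muscle glycogen phosphorylase, was similar, with 17 of 18 start exons used and at most 19.4% and 19.7% at any of them. Ryr1-208, of 15300 nt and 109 exons, had no complete read in either library, and was the parent of 979 of the 1097 suffix reads of Ryr1 in replicate 1 and 583 of 943 in replicate 2. Its earliest start was at exon 91, and exon 94 alone took 467 reads (47.7%) and 283 (48.5%). The other suffix reads of Ryr1 are outside this profile.

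In other genes nearly all suffix reads shared a start exon. Exon 2 took 90.1% and 93.0% of the suffix reads of Pfkm-201, and exon 4 took 88.9% and 92.9% of those of Pink1-201. Exon 3 took 94.7% and 95.5% for Hrc-201. For Atp5b-201, the beta subunit of mitochondrial ATP synthase, exon 9 took 89.0% in both.

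**Figure D3:**
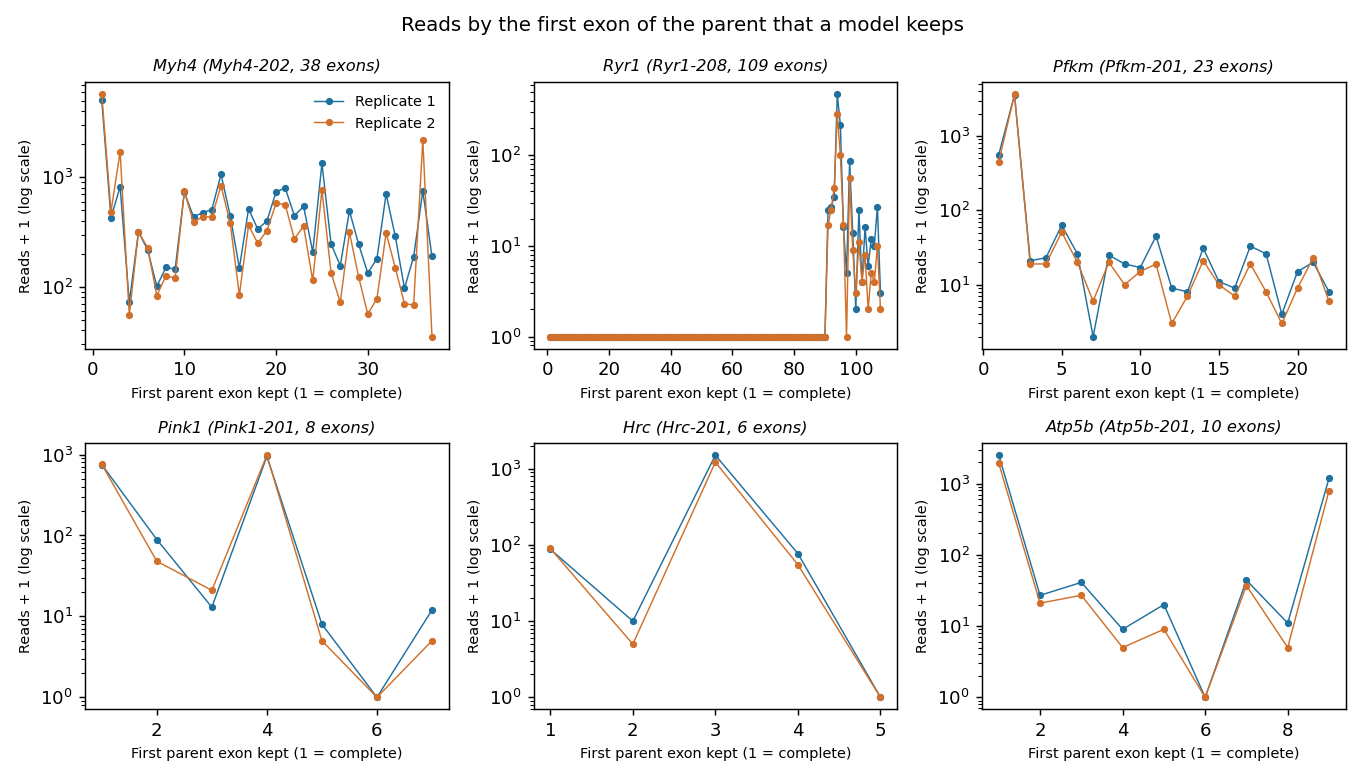
Reads + 1 on a log axis against the first exon of the parent that a model keeps (1 is the complete transcript), for 6 genes and both libraries. Myh4 starts are spread over all exons and the starts assigned to Ryr1-208 begin at exon 91, while Pfkm, Pink1, Hrc and Atp5b each have 1 dominant start exon among suffix models in both libraries.

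The same intron chain was found as a suffix model in both libraries 7587 times, in 2955 genes. As a share of models this was 41.3% in replicate 1 and 43.3% in replicate 2, but as a share of suffix reads 86.2% and 83.4%. Whether a model recurred went with its reads: of models with 1 read, 25.8% and 28.8% were found in the other library, of those with 2 to 4 reads 59.5% and 62.2%, and of those with 10 or more 97.5% and 96.7%. Starts were identical in 78.7% of the shared chains and within 100 nt in 88.7%. Most of these starts coincide with annotated exon starts. Of the 663 shared chains with both starts off annotated exon starts, 57.9% had the identical start and 61.1% were within 10 nt. With at least 10 reads in each library, 37 of 63 had the identical start.

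Candidate alternative starts were chosen by their reads: at least 10 reads and 10% of the gene's reads in each library, starts within 100 nt of each other, and at least 3 times the reads of the suffix models starting at either neighbouring exon. A model lacking 1 exon has no upstream neighbour of this kind, and a 2-exon model has no downstream one. The comparison was then made on the other side only, or on neither, as in Banf1. Without this condition 120 models met the rule. The full rule gave 112 models in 110 genes. They held 15670 reads in replicate 1 (15.1% of suffix reads) and 13962 in replicate 2 (16.6%). Of the 110 genes, 107 were among the 4671 with 20 or more reads per library (2.29% of these). The models were drawn from 589 chains with at least 10 reads in each library. Their reads and shares are therefore a description. Just inside the limit of 10%, 11 candidates had a lower share of 10% to 11.9%, and 14 chains just outside it had 8.33% to 9.91%. In 28 candidates the model held the majority of the gene's reads in both libraries. Of the 112, 42 started within 100 nt of the annotated start of another transcript of the gene, 69 inside an annotated exon, and 1, in Pfkm, in an intron. In replicate 1 all 42 and 61 of the 69 started exactly at the first base of an annotated exon. Candidates starting off such bases numbered 9 in replicate 1 and 11 in replicate 2. Whether the naming step moved the other starts there was not tested, so their exact bases may not be where the reads began.

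The distance to RefSeq starts was not used in the choice. A RefSeq start was known for the gene of 87 candidates, and 14 of these (16.1%) lay within 100 nt of it. In some of the 14 the first exon ran through a parent intron and nearly no parent sequence was missing. This was 2 nt in Prkab2 and 0 nt in Tagap1, Rilp and Hcfc1r1. Those models reach the parent's own start or nearly so, and a RefSeq match there does not bear on an alternative start. Among all 5391 shared chains with such a gene, 155 did lie within 100 nt (2.88%). These include chains with few reads, and chains read as deeply as the candidates were not compared separately. The annotated start codon was kept in 41 candidates and lost in 68. Among the 42 at an annotated start, 31 lacked 1 exon and 25 kept the start codon. For 26 of the 42 the transcript that starts there is not protein coding, and for 37 that transcript itself had no reads in either library. Among the 69 inside an exon, 20 lacked 1 exon and 15 kept the start codon.

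Pfkm held the most read candidate. Its 22-exon model had 3585 of 4743 reads in replicate 1 (75.6%, 74.3% to 76.8%) and 3631 of 4525 in replicate 2 (80.2%, 79.1% to 81.4%). The 23-exon parent, Pfkm-201, had 563 and 452 reads, and models starting at the next exon had 20 and 18. The model was thus the main form of the gene in both libraries. It starts at position 98112034 of chromosome 15 in both, in the first intron of Pfkm-201, and its first exon runs 120 nt upstream of the parent's second exon. No GENCODE start lay closer than 3568 nt, while a RefSeq start lay 26 nt downstream of the start printed above. The start codon was kept.

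Subunits of AMPK and a membrane adaptor also held candidates. The Prkab2 model had 465 of 667 reads (69.7%) and 407 of 531 (76.6%), against 46 and 37 for the complete Prkab2-201. It starts at position 97658214 of chromosome 3 in both libraries, 2 nt from a RefSeq start. Its first exon runs through the first intron of the parent, so 2 nt of the parent are missing and the start is nearly the parent's own. Prkag3, the muscle gamma 3 subunit, had a model with 131 of 518 reads (25.3%) and 54 of 226 (23.9%), starting at the same base, 74747518 of chromosome 1, which is no annotated exon start. It lacks 3 of 14 exons and the start codon. The Pacsin3 model had 133 of 487 reads (27.3%) and 92 of 364 (25.3%), against 22 and 20 for Pacsin3-201. It starts in the first intron of that parent, at the annotated start of Pacsin3-207 and 6 nt from a RefSeq start, and keeps the start codon.

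Several of the most read candidates lay in genes of mitochondrial ATP synthase or the respiratory chain, which are abundant in muscle. The 7-exon model of Atp5f1, a stalk subunit of the synthase, held 780 of 838 reads (93.1%) and 661 of 705 (93.8%), and its parent had none. It starts at the annotated start of a retained-intron transcript and keeps the start codon. Atp5j, coupling factor 6, had 741 of 1000 reads (74.1%) and 426 of 584 (72.9%) in a model that lacks exon 1 and keeps the start codon. Atp5b had a 2-exon model with 1181 of 3884 reads (30.4%) and 793 of 2826 (28.1%), beside 2498 and 1916 complete reads. Ndufa4 had 1172 of 2174 (53.9%) and 345 of 814 (42.4%) in a 2-exon model, and Ndufs7, a complex I subunit, 585 of 989 (59.2%) and 332 of 581 (57.1%). The last 3 lack the start codon and 74.4%, 40.8% and 67.5% of their parents.

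Hrc and Pink1 had starts deep in coding sequence. The 4-exon Hrc model had 1507 of 1731 reads (87.1%) and 1221 of 1419 (86.0%), while the complete Hrc-201 had 87 and 89. It lacks 89.4% of the parent and starts at 45337887 of chromosome 7 in replicate 1 and at 45337950 in replicate 2. The 5-exon Pink1 model had 947 of 1968 reads (48.1%) and 980 of 1920 (51.0%), and complete Pink1-201 had 750 and 754, so the 2 forms were of similar size in each library. Actn2, the alpha-actinin of the Z disc, had a 10-exon model with 94 of 580 reads (16.2%) and 820 of 2882 (28.5%). Nrap, an actin-binding protein of muscle ends, had 44 of 434 (10.1%) and 145 of 1128 (12.9%) in a model starting at exon 18.

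For some candidates the parent transcript itself had no reads. The complete parent had no reads in either library for Psmc2, whose model held 130 of 135 reads (96.3%) and 76 of 80 (95.0%). The same held for Cdh13, T-cadherin, with 132 of 151 (87.4%) and 75 of 98 (76.5%). It also held for Fdft1, squalene synthase, with 85 of 88 (96.6%) and 62 of 66 (93.9%). No annotated transcript of these genes had reads in either library. Reads of their other unannotated models were not checked for the annotated first exon. Of the 112 candidates, 10 at an annotated start and 12 inside an exon had no read of the complete parent in either library.

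Other candidates coexisted with their parents or differed between the libraries. Tecr, an enzyme of very long chain fatty acid synthesis, had 525 of 781 reads (67.2%) and 233 of 385 (60.5%) in a model that lacks exon 1. Arfgap2, a regulator of vesicle coats, had 306 of 634 (48.3%) and 108 of 385 (28.1%). Hfe2, hemojuvelin of iron metabolism, had 135 of 1095 (12.3%) and 101 of 673 (15%). Banf1 had 79 of 183 (43.2%) and 62 of 114 (54.4%), at position 5366363 of chromosome 19, which is a RefSeq start. Paip2, a translation repressor, had 41.3% and 44.3%, Psma7, a proteasome subunit, 31.9% and 44.4%, Mtfr1l, a mitochondrial fission regulator, 17.4% and 24.4%, and Golga4, a Golgi tether, 29.9% and 20.0%.

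Tnnt1, slow troponin T, met the rule with no 5' sequence of its assigned parent missing. Its model had 98 of 111 reads (88.3%) and 762 of 827 (92.1%). The first exon of the model runs from the start of the short Tnnt1-202 through its first intron, and 0% of that parent is missing. Tnnt1-202 itself had no reads in either library, and the model starts 7950 nt downstream of the nearest RefSeq start. Whether it lacks 5' sequence of other forms of the gene was not tested. In all, the first exon ran through a parent intron in 8 of the 42 candidates at an annotated start and in 5 of the 69 inside an exon.

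**Figure D4:**
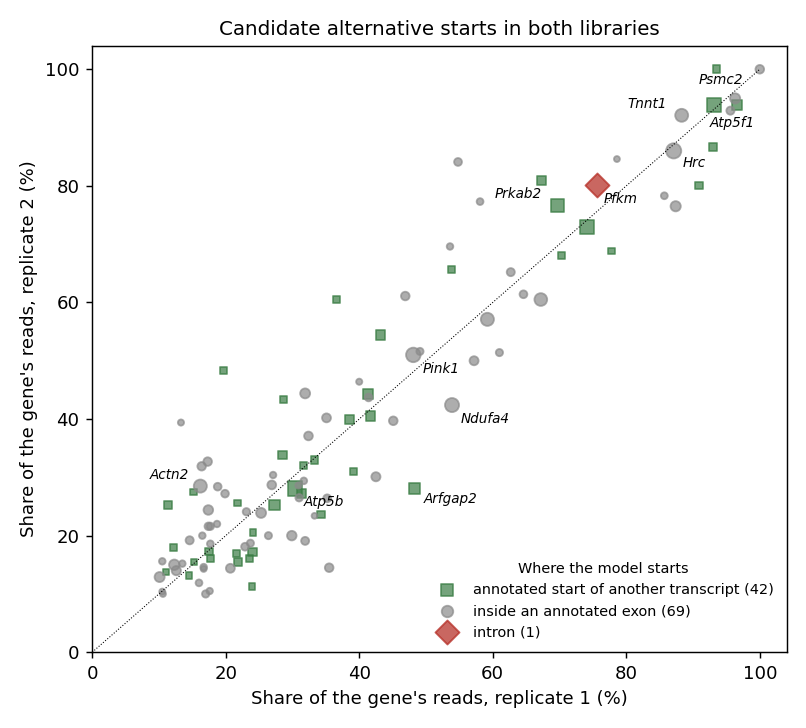
Share of the gene's reads held by each of the 112 candidate starts in replicate 1 (x axis, %) and replicate 2 (y axis, %), by where the model starts, with larger symbols for more reads and a dotted line of equal shares. Pfkm is the intron start, at 75.6% and 80.2%.

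Genes listed for known alternative starts were counted next. Of 35 genes, 31 had suffix reads, 24 had at least 20 reads in each library, and 1, Speg, a muscle kinase, had a candidate. Over all 4671 genes with that depth, 107 (2.29%) had a candidate, so the list lay near that background. The list's median shares were 5.61% and 5.50%. Myl1, whose downstream promoter makes the short essential light chain, had 1686 of 17256 suffix reads (9.77%) and 738 of 6145 (12%). Tpm1, alpha-tropomyosin, had 2.34% and 2.63%, Gnas, the stimulatory G protein, 3.06% and 1.88%, and Ank1, whose internal promoter makes a small muscle ankyrin, 5.05% and 2.53%. Where an alternative start is annotated with its own exons, reads from it count as that known transcript and not as suffix reads. Speg itself had 53 suffix reads of 111 (47.7%) and 66 of 105 (62.9%), its candidate taking 15 and 16 of them.

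Among genes of 100 or more reads per library, the highest mean shares were led by Atp5f1, with 96.4% and 96.9%, and Tnnt1, with 91.0% and 94.6%, with class names as deposited. With chains counted alike Ndufa13, a complex I subunit, had 97.9% and 98.5%, above Atp5f1 as deposited. Hrc had 93.9% and 90.8%, and Pfkm had 84.7% and 87.0%. Tecr had 82.7% and 73.2%, and Atp5j had 76.5% and 75.7%. Atp5f1, Tnnt1, Hrc, Pfkm, Tecr and Atp5j each owed most of this to the candidate described above. Among the most read suffix models without a candidate were a 2-exon model of Ckm with 2763 and 560 reads, a 16-exon model of Atp2a1 with 995 and 601, and a 5-exon model of Acta1 with 924 and 558. They were 2.78% and 0.958%, 0.436% and 0.293%, and 1.16% and 1.12% of their genes' reads.

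The suffix share of each gene was then tested for a difference between replicates 1 and 2 with Fisher's exact test (two-sided, Benjamini-Hochberg adjusted). With 1 library on each side this compares the libraries, not conditions, and has no replicate check. Of 4671 genes with at least 20 reads in each, 23 (0.492%) passed an adjusted p of 0.05 with a difference of at least 10 percentage points, 13 (0.278%) higher and 10 (0.214%) lower in replicate 2. At any difference 39 (0.835%) passed. With only known and suffix reads in the denominator 22 passed, 7 higher and 15 lower, so the balance of directions depended on that choice. Shares lay within 10 points in 92.4% of the genes, and the median difference was 0 points. Suffix models were longer in replicate 2, with medians of 2288 nt in replicate 1 and 2660 nt in replicate 2, and Myh7 and Tnnt1 had more reads there, with 119 and 2729 for Myh7 and 111 and 827 for Tnnt1. The part of either in these differences was not tested.

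The largest differences went with a change in the class name of a model. Class was given in each library from its own set of models, and 152 suffix chains of replicate 1 and 171 of replicate 2 carried another class in the other library. Ndufa13 had suffix shares of 0.217% and 98.5%, but its 4-exon chain had 899 reads in replicate 1, classed as both suffix and prefix, and 532 in replicate 2, classed as suffix. Itgb1, the beta 1 integrin, had 5.11% and 67.2%, with 111 reads of its main chain classed as a new combination of known splice sites in replicate 1 and 150 as suffix in replicate 2. Clcn4, a chloride transporter, had 9.89% and 66.3%, with 53 reads of its 12-exon chain classed as both suffix and prefix in replicate 1 and 56 as suffix in replicate 2. Nr4a1, an immediate-early nuclear receptor, had 6.88% and 61.9%, and 77 reads of its 7-exon chain were classed as a form with a new splice site in replicate 1 against 84 as suffix in replicate 2. Pitpnc1, a lipid transfer protein, had 2.5% and 38.2%. Lower in replicate 2 were Cep85, a centrosome protein, with 38.5% and 8.99%, Hnrnpa2b1, an RNA-binding protein, with 38.2% and 14.9%, and Eif4e2, a cap-binding protein, with 25% and 1.54%. The last 4, with Itgb1 and Clcn4, changed sign once a chain was counted alike in both libraries. Among these only Hnrnpa2b1 still passed, so for the others the difference was lost and not turned around. Counted so, a choice made after seeing the data, 12 genes passed (0.257% of those tested), 7 higher and 5 lower. All 12 were among the 23, with Hnrnpa2b1 in the opposite direction.

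The shares of these 12 genes follow with chains counted alike. H2-Ke6, a steroid dehydrogenase, had 1 suffix read of 53 (1.89%) in replicate 1 and 27 of 56 (48.2%) in replicate 2 (adjusted p = 2.17e-06 by Fisher's exact test). Naca, a ribosome-associated chaperone, had 68.6% and 91.6%, Xirp2, an actin-binding protein of the junctions, 41.2% and 61.0%, Ttn, titin, 31.9% and 49.1%, Hnrnpa2b1 39.6% and 54.8%, Rps25, a ribosomal protein, 3.96% and 18.8%, and Nexn, an actin-binding Z-disc protein, 5.56% and 16.1%. Lower in replicate 2 were Rpa1, which coats single-stranded DNA, with 32.9% and 8.75%, Bag3, a chaperone partner at the Z disc, with 39.5% and 17.0%, and Arfgap2 with 51.7% and 31.7%. Myo18b, a sarcomere myosin, had 76.6% and 62.7%, and Ndufa4 had 54.0% and 42.5%. Ndufa4, Arfgap2 and Bag3 of these 12 also held a candidate start, against 107 of all 4671 genes tested (2.29%). With names as deposited, Ttn and Xirp2 were higher and none was lower among the 22 giant genes tested, against 0.492% called over all genes. Of the 24 tested genes with known alternative starts, Ttn, which is in both lists, was higher and Synpo2, an actin-binding Z-disc protein, lower (17% and 0.172%). With chains counted alike Synpo2 had 17% and 16.1%. No short abundant gene passed at 10 points, though Ckm (4.76% and 2.39%, adjusted p = 1.06e-127 by Fisher's exact test), Acta1, Myl1, Tnni2 and Pgam2 did at smaller differences.

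**Figure D5:**
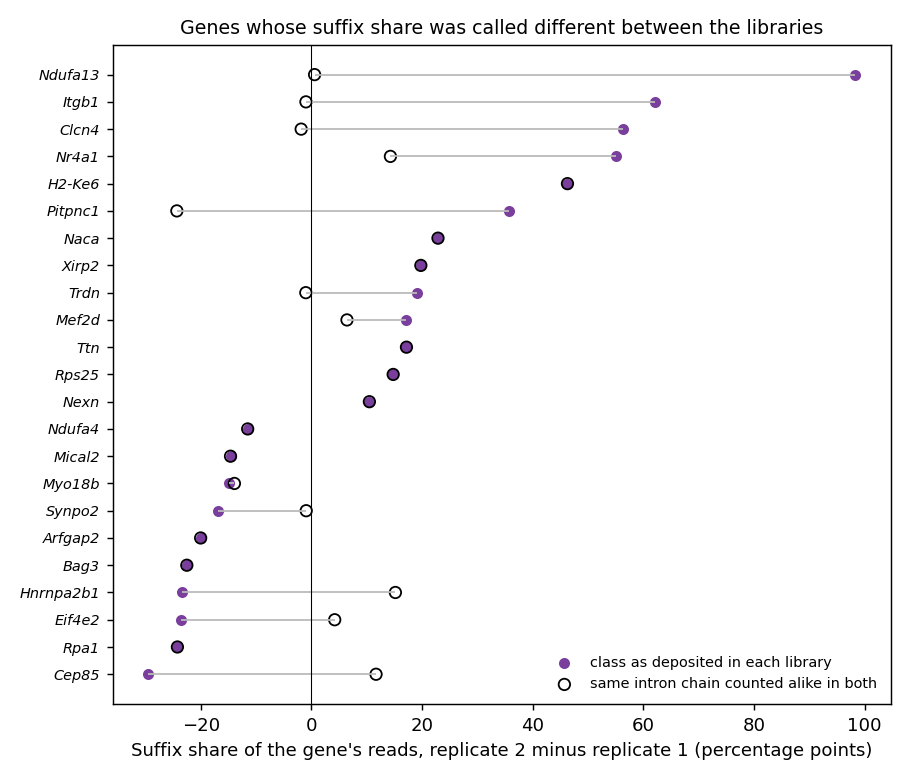
Difference in suffix share, replicate 2 minus replicate 1 in percentage points, for the 23 genes called with the class as deposited (filled) and the same genes with each intron chain counted alike in both libraries (open). Ndufa13 moves from 98.3 to 0.595 points, while H2-Ke6 stays at 46.3.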

How the data were processed

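Raw counts of long reads per transcript model were deposited by the authors, 1 table per library, with each model's class, exon number and length, per the file headers. The deposited annotations name TALON as their source, on mm10 with GENCODE M21. Aligner, platform and model filters: not given in the sources used here. Models were matched between libraries by intron chain. Exon coordinates came from each library's deposited annotation (1-based). Missing length counts parent bases upstream of the model's start. Shares carry exact 95% Clopper-Pearson intervals, which cover counting error only. Genes were tested by Fisher's exact test with Benjamini-Hochberg adjustment with scipy 1.17.1 (Python 3.11.15). On simulated reads for the 4671 genes of this comparison, 57 of 100 genes changed by 20 points and 87 of 100 changed by 40 points were called, and 0 of 4471 unchanged genes. The simulated reads carried counting error only, with no variation between libraries and no change of class name. The 0 is therefore not a rate of false calls for these libraries.

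Named genes were the 15 most read suffix models, the 25 most read candidates, the 6 highest and 6 lowest called differences, the list genes and the 10 highest mean shares among genes of 100 or more reads per library. The other genes among the 12 called with chains counted alike, Pygm, and the list genes with low shares were named after their values were seen. Candidates, lists, tests and members were chosen with earlier results of these data known. RefSeq windows of 120 bases were matched by symbol. A few genes that the rule names are not reported here. Base-level genome sequence beyond these windows was not used here. Alternatives changed the read minimum, the classes counted, the parent, the distance between starts, the share limit and the library left out.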

Additional observations from a re-analysis of the deposited data

How the results depend on the processing

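The mean suffix share of 7.02% became 10.3% of known and suffix reads only and 6.13% with models of at least 2 reads, and ranged from 6.85% to 7.18% with either library left out. The median missing share of 29.0% became 28.1% with models of at least 2 reads, and ranged from 28.4% to 29.5% without either library. The median share of genes over 5000 nt minus that up to 1000 nt, 7.92 points, became 6.61 among genes with at least 50 reads and 11 with known and suffix reads only, and ranged from 7.69 to 8.14 without either library. The difference between genes of 1000 or more and of 10 to 29 reads, 3.26 points, reversed to -1.56 with known and suffix reads only, and ranged from 3.14 to 3.37 without either library. The 7587 shared chains became 3192 when each needed 2 reads per library. The 112 candidates became 68 at 20% of the gene's reads, 188 with at least 5 reads, and 9 when starts had to lie off annotated exon starts, a choice made after seeing the data. Of the candidates, 67 were kept under each of the other 5 alternatives.

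The 23 genes called became 13 at 20 points, 39 with no smallest difference and 12 with chains counted alike in both libraries. With known and suffix reads only 22 were called, 7 higher and 15 lower in replicate 2, against 13 and 10. Single genes changed sign with chains counted alike: Cep85 to 11.7 points, Clcn4 to -1.83, Eif4e2 to 4.23, Hnrnpa2b1 to 15.2, Itgb1 to -0.969 and Pitpnc1 to -24.3. Of these only Hnrnpa2b1 still passed. With models classed as both suffix and prefix added, Cep85 changed to 10.1, Clcn4 to -1.83 and Hnrnpa2b1 to 15.2, and again only Hnrnpa2b1 passed. The cause was not tested beyond the change of class itself. No paired analysis was possible because there was 1 group.

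Depth limits single models most, since 65.0% and 66.2% of them rest on 1 read. Repeated reads of a molecule were not separable here. Whether a recurring start is a promoter was not tested.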

Other observations

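Outside known genes, 19 suffix models with 57 reads were listed in replicate 1 and 17 with 34 reads in replicate 2. Known genes also had 256 and 262 models classed as both suffix and prefix. Incomplete models that matched an inner part of a transcript, neither suffix nor prefix, numbered 2057 and 1570, with 18823 and 9474 reads.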
